A study of Arabidopsis thaliana with 12 samples.

Results

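The WRKY transcription factors were followed in roots of *Arabidopsis thaliana* as 59 loci of the family. They were listed by locus number and not by a measured value, though with earlier results of these data known. Statements on the family or a subgroup below cover the listed loci alone. Of the 59 loci, 57 were matched by a probe of the array, out of 25433 loci with a probe. For a test, the brightest probe had to lie well above background on all arrays of some group, which held for 53 members among 25206 genes tested. A locus was known for 20561 of the 25206, and each other entry was a probe without a locus, counted as a gene in all shares below. *WRKY4* and *WRKY61* had no matched probe. *WRKY12* stayed near background on each of the arrays. *WRKY10*, *WRKY42* and *WRKY55* were well above background on only 3, 3 and 4 of the 12 arrays. None of these was tested.

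The study asked how roots that lack the G protein beta subunit AGB1 respond to salt. Roots were dissected from 7-day-old seedlings of Col-0 (WT) and of *agb1-3* (*agb1*), a T-DNA insertion line that the study describes as null for *AGB1*. Each genotype was sampled before and after 4 h in 150 mM NaCl (0 h and 4 h), with 3 single-colour Agilent arrays per group, and no complemented line or further allele was on these arrays. The labels give the control as 0 h in salt medium, whereas the study's methods give it as 4 h in medium without added NaCl, and the names 0 h and 4 h follow the labels here.

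WRKY proteins bind a short promoter element called the W box through a conserved domain with a zinc finger, and the family is divided by domain number and zinc finger type into groups I, II (IIa to IIe) and III. Many members change within hours of pathogen attack, wounding, salicylic acid, abscisic acid (ABA), drought or salt, and several bind their own or each other's promoters. MAP kinases phosphorylate group I members such as WRKY33, group IId members bind calmodulin, and small VQ motif proteins bind several groups. In roots single members are known for phosphate starvation responses (WRKY75, WRKY45, WRKY6, WRKY42), root hair patterning (WRKY44, also called TTG2), auxin feedback (WRKY23) and salt tolerance (WRKY8, WRKY25, WRKY33).

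On each array the log2 of the background-corrected spot intensity minus the array's 75th percentile is called the log2 signal, so that 0 stands for a spot as bright as that percentile. Differences between groups are given as log2 differences of this signal with their standard error (SE), and a member is called where limma gave an adjusted p below 0.05, with Benjamini-Hochberg adjustment over all 25206 genes. The share of spots well above background was 74.1% to 76.1% per array, with no saturated spot. The first and second *agb1* arrays at 0 h (replicates 1 and 2) differed less than repeated spots of 1 probe do on an array (spread 0.0838 compared with 0.0942). The value of 0.0942 is what repeated spots would give between 2 arrays and rests on only 5 probes with 5 spots each. Replicates 1 and 2 were averaged and counted as 1 sample, so that n = 2 for *agb1* at 0 h, n = 3 for the other groups and 11 samples entered the model. The study states independent biological replicates, and precision is limited by how few arrays there were. *AGB1* itself, by its brighter probe, ranged from 1.26 to 1.64 over the WT arrays and from -0.10 to 0.88 over those of *agb1*. It differed between the genotypes by -1.20 at 0 h (SE 0.22, adjusted p = 0.034) and -0.74 at 4 h (SE 0.19, adjusted p = 0.112). The second *AGB1* probe, well above background on all 12 arrays, did not separate the genotypes. It ranged from -2.22 to -0.92 over the WT arrays and from -1.32 to -0.78 over those of *agb1*. The summed linear level of 8 root markers ranged from 96.1 to 148 over the arrays, most of it from *PYK10* (log2 signal 5.97 to 6.93). On WT 4 h replicates 1, 2 and 3 the root markers *COBL9* (-0.71, -0.65 and 1.32) and *EXPA7* (0.12, -0.32 and 1.93) were highest on replicate 3, whereas *CASP1*, *ESB1* and *SHR* were lowest there. The sum of 8 leaf and photosynthesis markers ranged from 4.87 to 17.3, most of it from *PSBO1* (log2 signal 1.64 to 3.47). This range was widest among the WT 4 h arrays (6.12 to 17.3), with 4.87 to 8.34 in *agb1* at 0 h and 10.9 to 12.8 in *agb1* at 4 h. The part of these differences in the values below was not tested, and in whole roots fewer cells of a type and less RNA per cell cannot be told apart.

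The 53 members differed little among the 3 WT 0 h arrays, where none lay more than 1 log2 unit from the mean of the other arrays of its group. On WT 4 h replicate 3 this was so for 13 members, of which 11 were lower, namely *WRKY13*, *WRKY22*, *WRKY25*, *WRKY26*, *WRKY38*, *WRKY46*, *WRKY50*, *WRKY51*, *WRKY54*, *WRKY62* and *WRKY70*. The 2 that were higher there were *WRKY43* and *WRKY56*. On *agb1* 0 h replicate 3 it was so for 9 members, and on each other array outside WT 0 h for 1 to 8. Results that rest on WT 4 h replicate 3 are therefore also given without it.

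**Figure D1:**
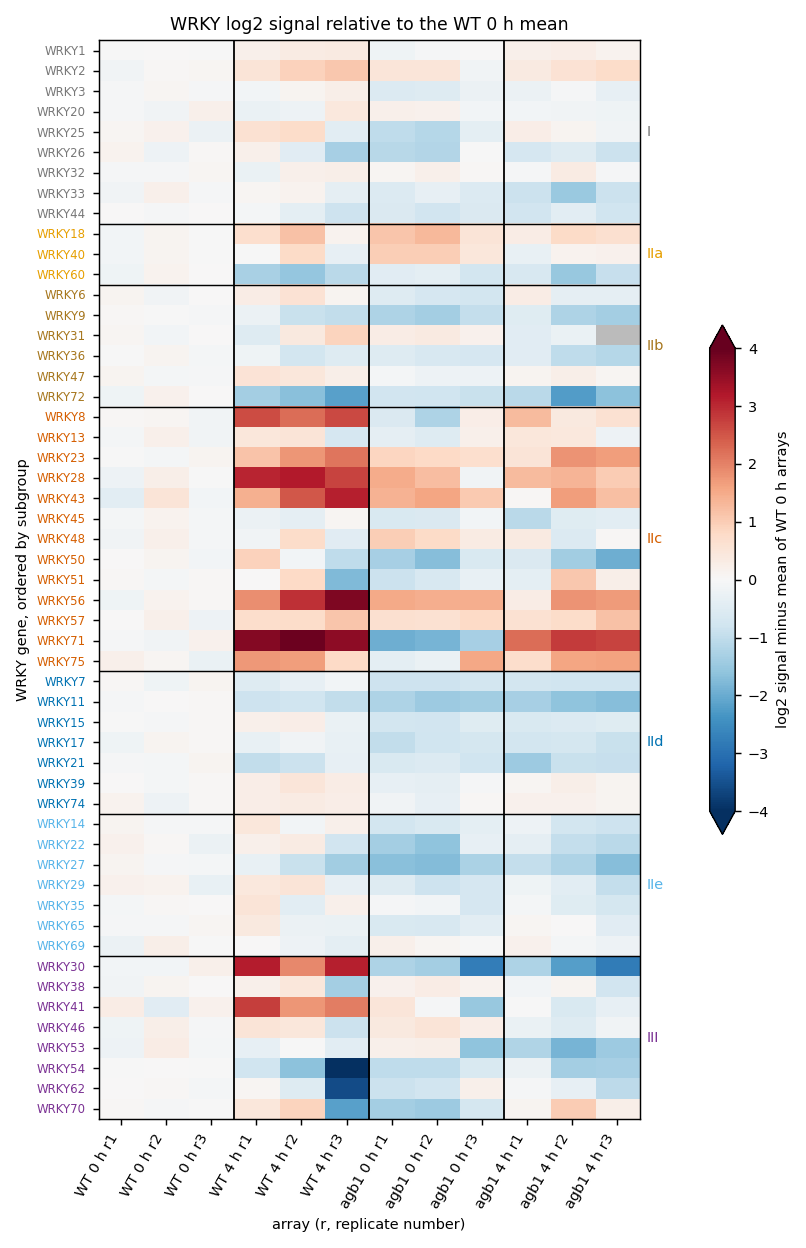
Log2 signal of the 53 tested WRKY genes (vertical axis, ordered by subgroup, the coloured labels on the right) on the 12 arrays (horizontal axis), as the difference from the mean of the WT 0 h arrays (colour scale, log2 units, red higher and blue lower, clipped at 4; grey marks the value left out for *WRKY31*). Red cells at WT 4 h gather in subgroup IIc and in *WRKY30* and *WRKY41*, and WT 4 h replicate 3 is dark blue for *WRKY54* and *WRKY62*.

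In WT roots 4 h of salt raised 11 of the 53 members and lowered 4, compared with 8.84% of all genes tested higher and 11.2% lower. The share of members that rose was above the share of all genes, and the share that fell was below it. Of the 11 that rose, 7 belonged to subgroup IIc, whose 13 tested members had a median log2 change of 1.40, beside 0.06 over the 53 members and -0.10 over all genes. The other subgroups had medians between -0.24 and 0.13.

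*WRKY71* (AT1G29860), a IIc factor known for promoting shoot branching, rose most. Its log2 signal was -6.49, -6.60 and -6.27 on the WT 0 h arrays and -2.79, -2.52 and -2.87 on the WT 4 h arrays. All 4 h arrays lay far above all 0 h arrays, and the log2 change was 3.72 (SE 0.21, adjusted p = 2.61e-05). *WRKY28* (AT4G18170), which binds the promoter of the salicylic acid synthesis gene *ICS1*, went from -5.64, -5.21 and -5.45 to -2.39, -2.26 and -2.72. The groups were well apart, and the log2 change was 2.98 (SE 0.33, adjusted p = 0.000668). The second probe of *WRKY28* gave 2.89.

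*WRKY8* (AT5G46350) is the IIc factor that is best known from salt stress, where loss of its function lowers tolerance and the VQ motif protein VQ9 opposes it. Its log2 signal was -5.86, -5.83 and -6.07 at 0 h and -3.30, -3.68 and -3.27 at 4 h in WT. The arrays of the groups did not overlap, and it rose by 2.51 (SE 0.32, adjusted p = 0.00126).

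*WRKY56* (AT1G64000) and *WRKY43* (AT2G46130) rose with a wider spread. *WRKY56* went from -4.04, -3.74 and -3.82 to -1.99, -0.94 and -0.13, a log2 change of 2.84 (SE 0.49, adjusted p = 0.00498), and its second probe gave 3.02. *WRKY43* went from -6.44, -5.49 and -6.13 to -4.60, -3.54 and -2.92, a log2 change of 2.33 (SE 0.50, adjusted p = 0.0135). In both, every salt array exceeded every 0 h array, and replicate 3 was the highest of the salt arrays. Without that array *WRKY56* changed by 2.40 and *WRKY43* by 1.95, and both were still called. *WRKY43* missed an adjusted p of 0.05 without WT 0 h replicate 1 or 3, at 0.0537 at most.

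The remaining IIc members that rose were *WRKY23* (AT2G47260), which acts in auxin feedback and flavonol synthesis in roots, with a log2 change of 1.69 (SE 0.35, adjusted p = 0.0112), and *WRKY57* (AT1G69310), known from drought tolerance, with 0.84 (SE 0.19, adjusted p = 0.0147). *WRKY57* was lost without WT 0 h replicate 3 (adjusted p = 0.0646). Of the 6 tested IIc members that were not called, *WRKY75*, a phosphate starvation factor that also restrains root hairs, had the highest value, 1.40 (SE 0.47, adjusted p = 0.0668), and the other 5 lay between -0.31 and 0.10. *WRKY75* passed without WT 4 h replicate 3, at 1.70 (adjusted p = 0.0496), and in a fit of the WT arrays alone (adjusted p = 0.0243).

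In group III only *WRKY30* and *WRKY41* passed, out of 8 tested members. *WRKY30* (AT5G24110), which responds to oxidative stress and raises salt tolerance when over-expressed, had a log2 signal of -3.80, -3.82 and -3.49 at 0 h and -0.56, -1.80 and -0.58 at 4 h, with replicate 2 the lowest of the salt arrays. It rose by 2.72 (SE 0.50, adjusted p = 0.00701), and by 2.82 with its second probe. *WRKY41* (AT4G11070), a factor of seed dormancy that acts through *ABI3*, went from -5.53, -6.27 and -5.65 to -3.05, -4.04 and -3.77, again without overlap, and rose by 2.19 (SE 0.44, adjusted p = 0.00976).

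The last pair that rose changed less than 2-fold. *WRKY2* (AT5G56270), a group I factor of pollen and early embryo development, rose by 0.83 (SE 0.21, adjusted p = 0.0227) and *WRKY47* (AT4G01720, IIb) by 0.41 (SE 0.12, adjusted p = 0.042). *WRKY2* missed the threshold when any 1 WT 0 h array, WT 4 h replicate 2 or WT 4 h replicate 3 was left out, at 0.0804 at most. For *WRKY47* this held for each WT 0 h array, for replicates 1 and 2 of WT 4 h and for replicates 2 and 3 of *agb1* 4 h, at 0.131 at most.

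The 4 members that fell in WT came from 3 subgroups. *WRKY72* (AT5G15130, IIb), known from basal defence against nematodes and oomycetes, fell from -0.66, -0.32 and -0.49 to -1.85, -2.16 and -2.66, a log2 change of -1.73 (SE 0.29, adjusted p = 0.00453), and its second probe gave -1.81. *WRKY60* (AT2G25000, IIa), which forms complexes with WRKY18 and WRKY40 and acts in ABA signalling, fell from 0.25, 0.56 and 0.42 to -0.87, -1.14 and -0.65, a log2 change of -1.30 (SE 0.23, adjusted p = 0.00548). In both the groups were clearly apart. Its partners *WRKY18* and *WRKY40* had 0.66 (SE 0.27, adjusted p = 0.114) and 0.13 (SE 0.27, adjusted p = 0.757). Without WT 4 h replicate 3 *WRKY18* was called, at 0.92 (adjusted p = 0.0354).

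*WRKY11* (AT4G31550, IId), which limits basal resistance to *Pseudomonas*, fell from 1.73, 1.78 and 1.81 to 0.93, 0.99 and 0.80, with little spread in either group and a log2 change of -0.87 (SE 0.12, adjusted p = 0.00204). *WRKY21* (AT2G30590, IId) fell by 0.72 on the log2 scale (SE 0.21, adjusted p = 0.0414). Leaving out any of the same arrays as for *WRKY47* ended the call for *WRKY21*, at 0.134 at most.

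*WRKY54* and *WRKY62*, group III factors of salicylic acid responses, had large falls that were not called. *WRKY54* was -2.01, -1.97 and -2.02 at 0 h and -2.79, -3.65 and -6.33 at 4 h, a log2 change of -2.26 (SE 0.75, adjusted p = 0.0634), which passed without WT 4 h replicate 1 (-2.99, adjusted p = 0.021) and with 12 arrays as separate samples (adjusted p = 0.0456). *WRKY62* was -2.68, -2.65 and -2.79 at 0 h and -2.62, -3.22 and -6.29 at 4 h, a log2 change of -1.33 (SE 0.80, adjusted p = 0.265). In each, replicate 3 lay far below the other salt arrays, and without it the changes came nearest to 0, at -1.22 and -0.21. Their relative *WRKY70* was 1.07, 0.97 and 1.01 at 0 h and 1.47, 1.90 and -1.15 at 4 h, where replicates 1 and 2 lay above the 0 h arrays and replicate 3 below them.

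Over the WT response as a whole, the arrays of the groups did not overlap for 17 members that were higher at 4 h and 9 that were lower, compared with 17.7% and 27.5% of all genes. Of the 15 calls, 10 were kept whichever array was left out. With slide as a fixed block, which compares arrays of the same slide, 12 of the 15 were kept, and the calls for *WRKY2*, *WRKY21* and *WRKY47* were lost (adjusted p = 0.0982, 0.0746 and 0.116). Within slide 1 and slide 3, which held the groups of replicates 1 and 3, *WRKY71* changed by 3.69 and 3.39, *WRKY28* by 3.25 and 2.73, *WRKY30* by 3.24 and 2.91 and *WRKY8* by 2.57 and 2.80. With the normexp background correction 3 of the 15 calls remained and *WRKY8*, *WRKY41* and *WRKY43* turned negative (-0.16, -0.18 and -0.22). On 3 arrays the 10th percentile of the normexp intensity was then 313 to 945, compared with 62.5 to 68.2 on the other 9, and once outlier spots and spots with a non-uniform background were left out, a step added after seeing the data, 14 of the 15 calls were kept.

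**Figure D2:**
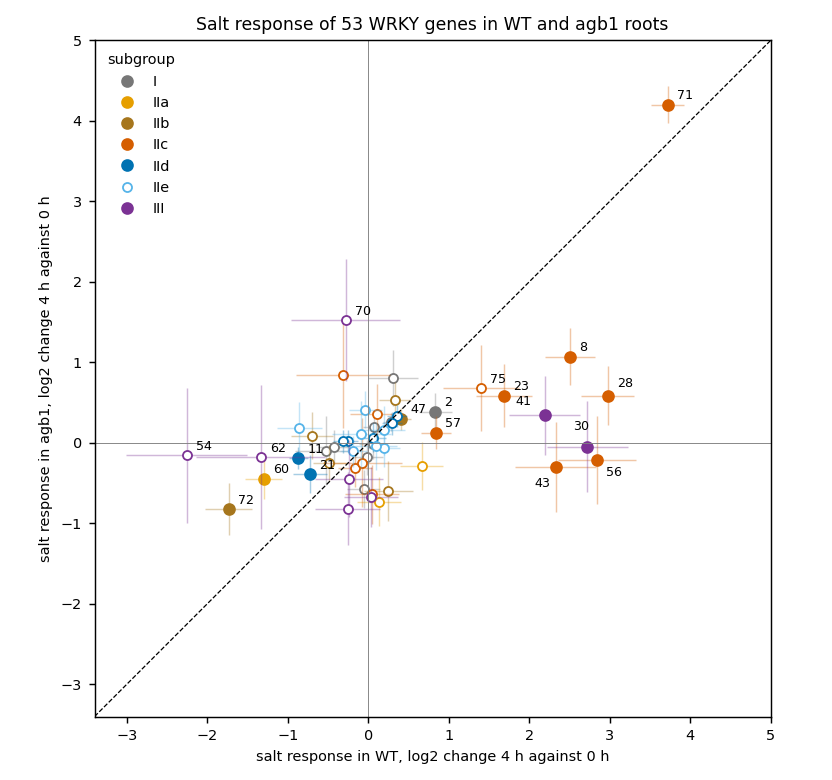
Salt response (log2 change from 0 h to 4 h) of the 53 tested WRKY genes in WT (horizontal axis) and *agb1* (vertical axis), coloured by subgroup, with standard errors from limma as bars and filled symbols for the 15 genes called in WT. Numbers name the WRKY gene and the dashed line marks equal responses. *WRKY71* is drawn at its measured change in *agb1*, which rests on 0 h spots not well above background. How far above the line it lies can therefore not be read. *WRKY28*, *WRKY8*, *WRKY30*, *WRKY41*, *WRKY43* and *WRKY56* lie to the right of the line, near 0 or up to 1.07 on the vertical axis.

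In *agb1* roots the same salt treatment gave 1 call among the 53 members, a rise of *WRKY71*, compared with 1.41% of all genes higher and 0.706% lower. At an unadjusted p below 0.05, 6 members were higher and 3 lower, compared with 10.9% and 11.2% of all genes. The estimate for *agb1* rests on 2 samples at 0 h and has larger standard errors than that for WT. With 12 arrays as separate samples 2 members were called, and 3295 of all genes tested, compared with 533 here.

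*WRKY71* was -8.42, -8.32 and -7.79 on the *agb1* 0 h arrays, where its spot was not well above background, and -4.23, -3.66 and -3.76 on the *agb1* 4 h arrays. The salt arrays lay far above the 0 h arrays. The measured log2 change was 4.20 (SE 0.23, adjusted p = 0.000183). For a bound, the 0 h value on each array was the higher of the spot's own signal and the lowest signal that counts as above background. By this bound its level was at least 14.0-fold higher at 4 h, not a smaller rise than the log2 change of 3.72 in WT. The call was kept whichever array was left out. The normexp background correction lowered the measured change to 2.37 and ended the call (adjusted p = 0.258), and with the non-uniform spots left out it was 1.99 and called (adjusted p = 0.00152). Both changes are smaller than the bound, which therefore holds only for the log2 signal used here.

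The other members that rose strongly in WT moved less in *agb1*. *WRKY8* was -6.49, -7.15 and -5.64 at 0 h and -4.64, -5.54 and -5.30 at 4 h, so that every salt array was above every 0 h array, though replicate 2 at 4 h exceeded replicate 3 at 0 h by little. Its change of 1.07 (SE 0.35, adjusted p = 0.134) was not called. Without *agb1* 0 h replicate 3, which leaves 1 sample in that group whose spread is taken from the other groups, it was 1.66 and passed (adjusted p = 0.0392). It also passed with 12 arrays as separate samples, at 1.27 (adjusted p = 0.04), and likewise with the replicate block or slide as a random block over 12 arrays (adjusted p = 0.0443 and 0.0404). *WRKY28* was -3.93, -4.19 and -5.56 at 0 h and -4.18, -4.07 and -4.42 at 4 h, a change of 0.59 (SE 0.37, adjusted p = 0.374). The *WRKY28* ranges overlapped fully, with replicate 3 at 0 h far below the other *agb1* 0 h arrays.

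*WRKY30* was -4.94, -5.07 and -6.48 at 0 h and -4.95, -5.91 and -6.51 at 4 h in *agb1*, a change of -0.05 (SE 0.56, adjusted p = 0.97), and its second probe gave -0.22. *WRKY41* was -5.34, -5.85 and -7.34 at 0 h and -5.82, -6.43 and -6.13 at 4 h, a change of 0.34 (SE 0.49, adjusted p = 0.708). The salt arrays of these genes lay within or next to the range of the 0 h arrays. *WRKY56* changed by -0.21 (SE 0.54, adjusted p = 0.845) and *WRKY43* by -0.30 (SE 0.56, adjusted p = 0.782).

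Among members not called in WT, *WRKY70*, which acts between salicylic acid and jasmonate signalling, had the largest positive change in *agb1* after *WRKY71*. It was -0.33, -0.45 and 0.31 at 0 h and 1.14, 2.05 and 1.26 at 4 h, without overlap, a change of 1.52 (SE 0.76, adjusted p = 0.271). Without WT 4 h replicate 3, which enters only through the shared estimate of the spread, its adjusted p was 0.0312. The largest negative changes were those of *WRKY72* (-0.82, SE 0.32, adjusted p = 0.185), *WRKY53*, a factor of leaf senescence (-0.82, SE 0.45, adjusted p = 0.317), and *WRKY40* (-0.73, SE 0.31, adjusted p = 0.206). Their second probes gave -1.06 for *WRKY72*, -1.54 for *WRKY53* and -0.73 for *WRKY40*. *WRKY53* was called without *agb1* 0 h replicate 3, at -1.74 (adjusted p = 0.0275), where the spread of the remaining sample is again taken from the other groups. The arrays did not overlap for 9 members higher and 8 lower in *agb1* after salt, compared with 16.3% and 18.4% of all genes.

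Set side by side, the 11 members called higher in WT had a median change of 2.33 in WT and 0.34 in *agb1*, 10 of them changed less in *agb1* and 8 had the same sign. The 4 called lower in WT had medians of -1.08 and -0.42, all with the same sign and all smaller in *agb1*. These members were picked by their values in WT, so that the sizes are a description. The difference between the salt responses was tested as the interaction, the response in *agb1* minus that in WT.

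No member passed an adjusted p of 0.05 for the interaction in limma, where 0.0912% of all genes were higher and 0.0873% lower. At an unadjusted p below 0.05, 3 members were higher and 8 lower, compared with 7.18% and 5.21% of all genes. The lowest values belonged to *WRKY56* (-3.05, SE 0.73, adjusted p = 0.17), *WRKY30* (-2.77, SE 0.76, adjusted p = 0.208), *WRKY43* (-2.63, SE 0.76, adjusted p = 0.232) and *WRKY28* (-2.39, SE 0.49, adjusted p = 0.112), and of these *WRKY28* alone had a positive value in *agb1*. The highest were those of *WRKY54* (2.1, SE 1.13, adjusted p = 0.483), *WRKY70* (1.80, SE 1.01, adjusted p = 0.498) and *WRKY62* (1.16, SE 1.21, adjusted p = 0.727), and without WT 4 h replicate 3 these 3 came nearest to 0, at 1.07, 0.86 and 0.03. *WRKY28* was called without *agb1* 0 h replicate 3, at -3.14 (adjusted p = 0.00824), again with 1 sample in that group. It was also called with all 12 arrays as separate samples, at -2.64 (adjusted p = 0.0412). For *WRKY71*, dim in *agb1* at 0 h, no interaction value is given.

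**Figure D3:**
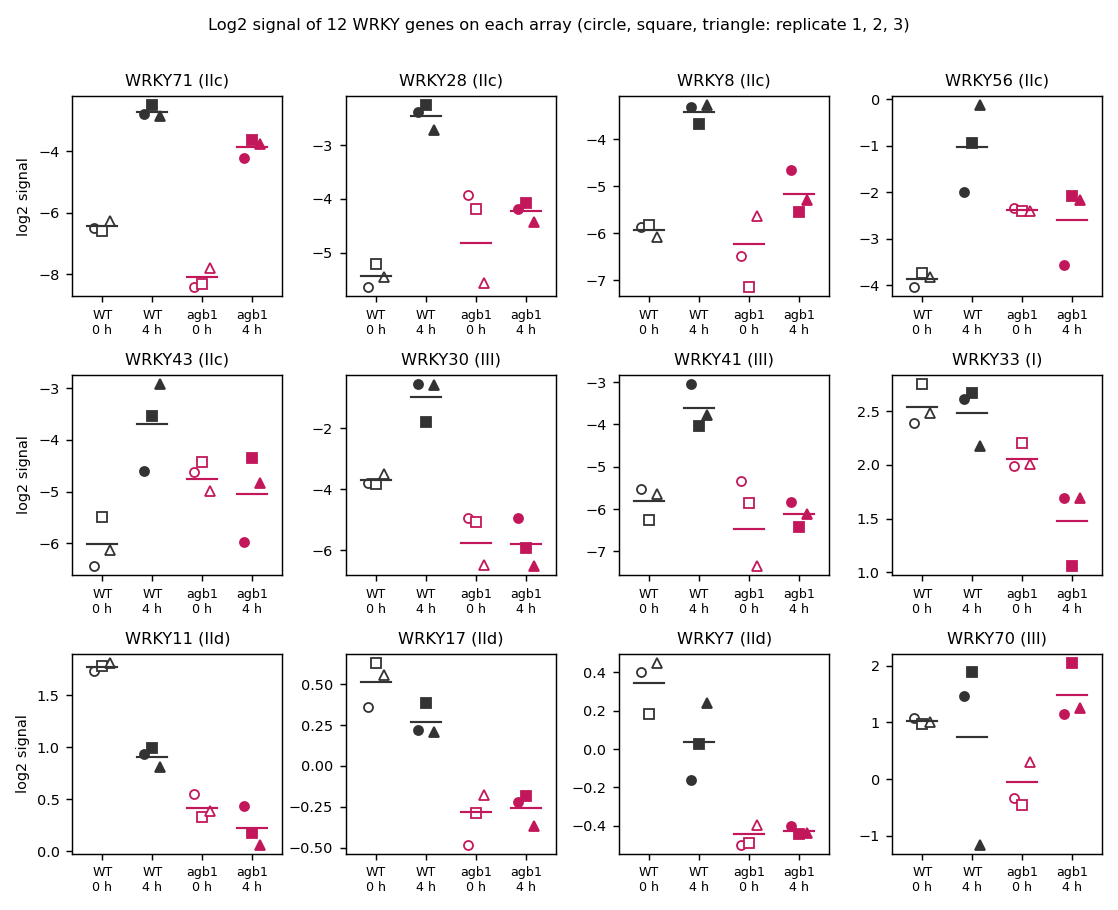
Log2 signal (vertical axes, each panel with its own range) of 12 WRKY genes on each array, by group (horizontal axes; black WT, red *agb1*, open 0 h, filled 4 h; circle, square and triangle for replicates 1, 2 and 3), with group means as lines, where *agb1* 0 h replicates 1 and 2 count as 1 sample. *WRKY30* at 4 h lies between -1.80 and -0.56 in WT and between -6.51 and -4.95 in *agb1*, and *WRKY11* is higher on every WT array than on every *agb1* array.

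Before salt, 4 of the 53 members were lower in *agb1* than in WT and none was called higher, compared with 1.29% of all genes lower and 0.591% higher. Of the 4, 3 belonged to IId, the calmodulin-binding subgroup, and all 7 IId members had a negative difference, with a median of -0.69. Over the 53 members 37 differences were negative and the median was -0.49, beside 0.00 over all genes. The arrays did not overlap for 27 members that were lower and 10 that were higher in *agb1*, compared with 20.4% and 20.1% of all genes.

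*WRKY11* was 1.73, 1.78 and 1.81 in WT roots but 0.55, 0.33 and 0.38 in *agb1* at 0 h. The genotypes were more than 1 log2 unit apart on every array, the difference was -1.36 (SE 0.14, adjusted p = 0.00455), and its second probe gave -1.20. The call was kept whichever array was left out. The closely related *WRKY17* (AT2G24570), which acts with WRKY11 in basal resistance, was 0.36, 0.63 and 0.56 in WT, compared with -0.48, -0.29 and -0.18 in *agb1*, a difference of -0.80 (SE 0.14, adjusted p = 0.0292). *WRKY7* (AT4G24240) was 0.40, 0.18 and 0.45 in WT roots but -0.50, -0.49 and -0.39 in *agb1*, a difference of -0.79 (SE 0.15, adjusted p = 0.0356). In both the genotypes did not overlap.

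*WRKY71* was -6.49, -6.60 and -6.27 in WT at 0 h and not well above background on the *agb1* arrays, so that only a bound can be given, and it was at least 2.35-fold lower in *agb1* (adjusted p = 0.0153 for the measured difference of -1.63). With normexp and the non-uniform spots left out the measured difference was -0.46 and was not called (adjusted p = 0.17), a smaller difference than the bound. The calls for *WRKY71*, *WRKY17* and *WRKY7* were lost without any 1 of the WT 0 h arrays, so that *WRKY11* alone was called then. Leaving out *agb1* 0 h replicate 3, with 1 sample left in that group, also ended the calls for *WRKY17* and *WRKY7*, and that for *WRKY7* needed WT 4 h replicate 2 and both *agb1* 4 h replicates 2 and 3 as well. The highest adjusted p among these was 0.139. Within slides 1 and 3 the differences were -1.18 and -1.42 for *WRKY11*, -0.84 and -0.74 for *WRKY17* and -0.90 and -0.84 for *WRKY7*. With slide as a fixed block *WRKY17* and *WRKY7* were no longer called (adjusted p = 0.0612 and 0.0506).

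Larger differences at 0 h that were not called came from members with wider spread. *WRKY30* was -3.80, -3.82 and -3.49 in WT, compared with -4.94, -5.07 and -6.48 in *agb1*, without overlap, a difference of -2.04 (SE 0.56, adjusted p = 0.104). *WRKY27* (IIe), which delays symptoms of bacterial wilt when lost, was 0.96, 0.80 and 0.75 in WT roots but -0.84, -0.89 and -0.43 in *agb1*, a difference of -1.48 (SE 0.32, adjusted p = 0.052). *WRKY27* passed on leaving out replicate 1 or 3 of WT 4 h or replicate 1 of *agb1* 4 h, at an adjusted p of 0.0281 to 0.0474, and with 12 arrays as separate samples (adjusted p = 0.0103).

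The highest positive differences were those of *WRKY56* (1.47, SE 0.54, adjusted p = 0.188), *WRKY43* (1.27, SE 0.56, adjusted p = 0.26) and *WRKY18* (0.86, SE 0.30, adjusted p = 0.172). *WRKY56* lay between -4.04 and -3.74 in WT and between -2.41 and -2.34 in *agb1* at 0 h. Every *agb1* array was therefore above every WT array in this gene although the difference missed the threshold. In a fit of the 0 h arrays alone it passed (adjusted p = 0.0138), and *WRKY18* passed with the replicate block over 12 arrays (0.97, adjusted p = 0.0373). With subgroup IIc the median was 0.60 at 0 h, the highest after that of the 3 IIa members (0.73), while the other subgroups had medians between -0.69 and -0.39.

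**Figure D4:**
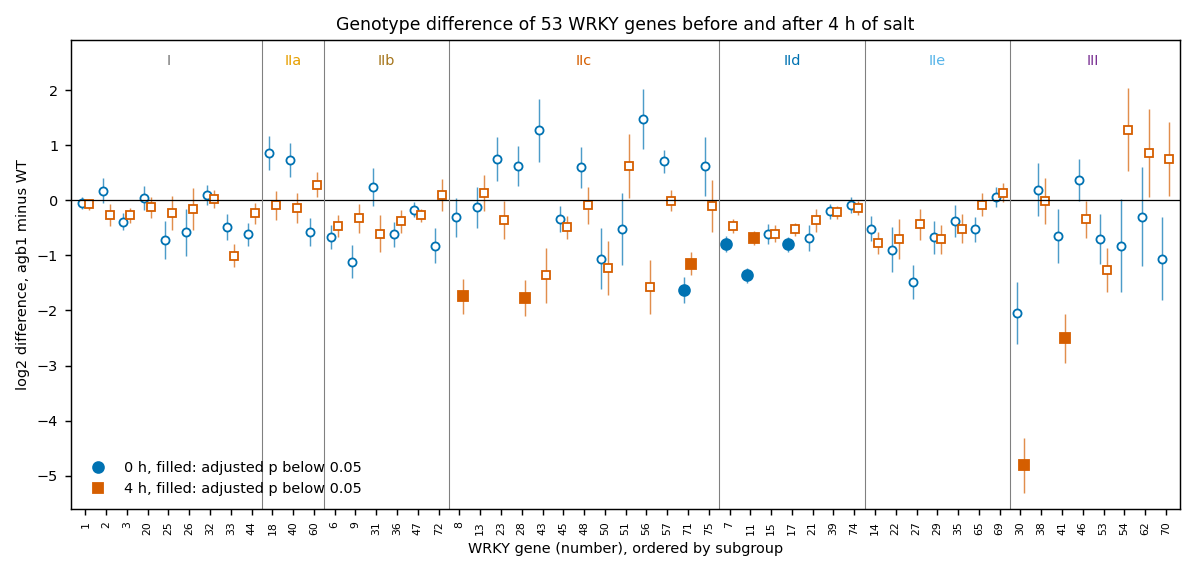
Log2 difference between *agb1* and WT (vertical axis) for the 53 tested WRKY genes (horizontal axis, by number within subgroup) at 0 h (blue circles) and at 4 h of salt (orange squares), with standard errors from limma as bars and filled symbols for genes called at an adjusted p below 0.05. All 7 IId genes lie below 0 at both times, and *WRKY30*, *WRKY41*, *WRKY28* and *WRKY8* are the lowest filled squares. The 0 h circle of *WRKY71* is the measured value, where the *agb1* spots were not well above background.

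After 4 h of salt 6 of the 53 members were lower in *agb1* and none was called higher, compared with 1.04% of all genes lower and 0.615% higher. They were *WRKY30*, *WRKY41*, *WRKY28*, *WRKY8*, *WRKY71* and *WRKY11*, and all but *WRKY11* belong to the members that rose with salt in WT. These comparisons share the WT 4 h arrays, so that a high WT value enters both. At an unadjusted p below 0.05, 19 members were lower and none was higher, compared with 6.03% and 8.32% of all genes. The differences were negative for 44 members with a median of -0.33, beside 0.05 over all genes, and the arrays did not overlap for 17 members that were lower and for none that was higher, compared with 7.08% and 11.6% of all genes.

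*WRKY30* was -0.56, -1.80 and -0.58 in WT, compared with -4.95, -5.91 and -6.51 in *agb1* at 4 h. The highest *agb1* array was more than 3 log2 units below the lowest WT array, the difference was -4.81 (SE 0.50, adjusted p = 0.00295), and the second probe gave -4.76. Within slides 1, 3 and 4 it was -4.39, -5.93 and -4.12. *WRKY41* was -3.05, -4.04 and -3.77 in WT roots but -5.82, -6.43 and -6.13 in *agb1*, again without overlap, a difference of -2.51 (SE 0.44, adjusted p = 0.0271).

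*WRKY28* was -2.39, -2.26 and -2.72 in WT, compared with -4.18, -4.07 and -4.42 in *agb1*, a difference of -1.77 (SE 0.33, adjusted p = 0.0348). *WRKY8* was -3.30, -3.68 and -3.27 in WT roots but -4.64, -5.54 and -5.30 in *agb1*, a difference of -1.75 (SE 0.32, adjusted p = 0.0309). In both, all WT arrays were above all *agb1* arrays, and the differences within slides 1, 3 and 4 were -1.79, -1.70 and -1.81 for *WRKY28* and -1.34, -2.02 and -1.87 for *WRKY8*. *WRKY71* was -2.79, -2.52 and -2.87 in WT, compared with -4.23, -3.66 and -3.76 in *agb1*, a difference of -1.15 (SE 0.21, adjusted p = 0.0293), and *WRKY11* differed by -0.69 (SE 0.12, adjusted p = 0.0277).

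The WT and *agb1* arrays at 4 h with the same replicate number shared a slide and deviated together, so that they were also compared as pairs in a fit of the 4 h arrays alone. With this replicate block *WRKY28* (adjusted p = 0.0472) and *WRKY41* (adjusted p = 0.046) were called, and *WRKY30*, *WRKY8*, *WRKY71* and *WRKY11* were not (adjusted p = 0.067, 0.0809, 0.11 and 0.151). With slide as a fixed block over all arrays *WRKY30*, *WRKY41*, *WRKY8* and *WRKY71* were called, and *WRKY28* and *WRKY11* were not (adjusted p = 0.0598 and 0.0624). The differences themselves are the same in these fits as without a block.

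Of the 6 calls at 4 h, *WRKY30* alone was kept whichever array was left out. The number called fell to 1 on leaving out replicate 1 or 3 of WT 0 h, replicate 1 or 2 of WT 4 h or replicate 3 of *agb1* 4 h. It fell to 2 on leaving out replicate 2 of WT 0 h or of *agb1* 4 h, and was 4 to 7 without any other array, with adjusted p of 0.133 at most for the members that were lost. Leaving out a 0 h array changes these calls only through the estimate of the spread. The differences with each array left out lay between -2.72 and -2.22 for *WRKY41*, -1.90 and -1.67 for *WRKY28*, -2.0 and -1.55 for *WRKY8* and -1.26 and -0.98 for *WRKY71*.

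*WRKY33* (AT2G38470), the group I factor of camalexin synthesis and a substrate of MPK3 and MPK6, lay just above the threshold at 4 h. Its WT values were 2.61, 2.67 and 2.18 and its *agb1* values 1.70, 1.06 and 1.69, without overlap, a difference of -1.01 (SE 0.21, adjusted p = 0.0512). It passed, for example, with quantile normalization (adjusted p = 0.0428) and with 12 arrays as separate samples (adjusted p = 0.0309). Its salt response in WT was -0.06 (SE 0.21, adjusted p = 0.875). Members with larger negative differences at 4 h that were not called included *WRKY56* (-1.58), *WRKY53* (-1.26) and *WRKY50* (-1.24).

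The highest positive differences at 4 h belonged to *WRKY54* (1.28, SE 0.75, adjusted p = 0.495), *WRKY62* (0.86, SE 0.80, adjusted p = 0.694) and *WRKY70* (0.74, SE 0.68, adjusted p = 0.683), for which WT 4 h replicate 3 was far below the other WT 4 h arrays. Without it they were 0.24, -0.26 and -0.20. With the thresholds of the study's legend for this kind of comparison, an unadjusted p below 0.05 and at least a 2-fold difference, 10 members were lower and none higher in *agb1* at 4 h (2.5% and 1.2% of all genes), and 5 were lower and 1 higher at 0 h (3.09% and 2.96% of all genes).

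Of the 53 members 30 had a negative difference at both times, 2 a positive one at both, 14 were above 0 at 0 h and below 0 at 4 h, and 7 went from below to above 0. The members that were above 0 before salt and below it after salt included *WRKY28*, *WRKY43*, *WRKY56* and *WRKY23*. *WRKY57* was also counted there, though its difference at 4 h was close to 0 (-0.0059). In subgroup IIc the median difference was 0.60 at 0 h and -0.49 at 4 h, whereas in IId it was -0.69 and -0.46. In IIe, which holds *WRKY22*, *WRKY27* and *WRKY29*, it was -0.53 and -0.51, and no IIe member was called in any comparison.

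Genes around the family were read from lists of MAP kinase cascade members, VQ motif partners and genes reported downstream of WRKY factors. Of the 11 MAP kinase cascade genes 2 were lower after salt in WT, compared with 11.2% of all genes, and none was called in any other comparison, namely *MKK1* (-0.80, SE 0.19, adjusted p = 0.0184) and *MKK4* (-0.62, SE 0.18, adjusted p = 0.0375). Of the 6 VQ motif genes *SIB2* fell with salt in WT by 1.96 on the log2 scale (SE 0.33, adjusted p = 0.00447). *MKS1*, which links MPK4 to WRKY33, was -4.19, -3.80 and -3.70 in WT roots but -5.34, -5.22 and -5.36 in *agb1* at 4 h, a difference of -1.41 (SE 0.17, adjusted p = 0.00522). *VQ9*, the partner of WRKY8, was not called in any comparison.

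Of the 16 genes reported downstream of WRKY factors 13 were tested, and 5 rose and 3 fell with salt in WT, compared with 8.84% and 11.2% of all genes, while none was called for salt in *agb1* or between the genotypes at 0 h. The risers were *RD29A*, a dehydration gene bound by WRKY8 (4.58, SE 0.43, adjusted p = 0.000326), *ACS2*, an ethylene synthesis gene bound by WRKY33 (2.54, SE 0.25, adjusted p = 0.000361), the defence marker *FRK1* (2.52, SE 0.24, adjusted p = 0.000361), *ICS1* (1.18, SE 0.30, adjusted p = 0.0255) and *ABI5* (1.12, SE 0.30, adjusted p = 0.0294). The phosphate transport genes *PHO1* (-0.77, SE 0.13, adjusted p = 0.00517) and *PHT1;1* (-0.99, SE 0.28, adjusted p = 0.0377) and the root hair regulator *GL2* (-0.73, SE 0.21, adjusted p = 0.0398) fell.

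At 4 h 2 of the 13 were lower in *agb1* and none higher, compared with 1.04% and 0.615% of all genes. *ACS2* was 0.39, -0.20 and -0.47 in WT, compared with -1.72, -2.44 and -2.38 in *agb1*, a difference of -2.08 (SE 0.25, adjusted p = 0.00463). *FRK1* was -2.35, -1.49 and -1.73 in WT roots but -3.47, -3.21 and -3.88 in *agb1*, a difference of -1.67 (SE 0.24, adjusted p = 0.0126). In both the genotypes were apart on every array. *ICS1* differed by -0.09 at 4 h, beside -1.77 for *WRKY28*, and *RD29A* by -0.99 (SE 0.43, adjusted p = 0.341), beside -1.75 for *WRKY8*. Before salt *RD29A* was 0.01, 0.03 and -0.54 in WT roots but 2.15, 2.29 and 0.39 in *agb1*, without overlap, and was not called. Of the 13 genes, 4 had a positive and 9 a negative difference between the genotypes at 0 h.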

How the data were processed

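The deposited scanner output of each root array (Agilent Feature Extraction, 10.7.1.1 in the headers and 9.1 in the submitters' processing notes) holds a background-corrected intensity per spot with no scaling between arrays, which was read for 43803 spots of 43603 probes. In R 4.3.3, control spots and the 2 to 28 outlier spots per array were left out, log2 intensities were set relative to the array's 75th percentile, and spots of 1 probe were averaged. The spot of *WRKY31* on *agb1* 4 h replicate 3 was an outlier, so that its values lack that array. Probes were matched to loci through RefSeq accessions (TAIR10.1), which gave 34358 probes of 25433 loci. The array annotation is older, so that no coordinates are given. Each gene was represented by its brightest probe, which decided between probes for 21 members.

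The 4 group means were fitted in limma 3.58.1 (lmFit and eBayes) over all genes, with Benjamini-Hochberg adjustment over 25206 genes. The fit was tested on simulated data. Alternatives were another normalization, normexp with an offset of 50 on the deposited median spot and background intensities, other filters and probe rules, 12 separate arrays, slide or replicate blocks, the compared groups alone and each array left out. The bound for a spot not well above background took on each array the lowest signal of any probe well above background, or the spot's own if higher. Arrays of 1 group were compared by the scaled median absolute deviation of log2 differences over 15343 bright probes, and 63 of these differed by over 1.5-fold between *agb1* 0 h replicates 1 and 2, compared with 304 to 3780 in the other 11 pairs. Replicate 1 of all groups lay on slide 1 and replicate 3 on slide 3. Replicate 2 lay on slide 4, apart from that of WT 0 h, which was alone on slide 2. Deviations from the group means of arrays with the same number correlated at 0.35 to 0.58 across genes for WT and *agb1* at 4 h, which pairs those samples, and at -0.20 to 0.21 in the other comparisons.

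Named are all members called, with the 3 largest rises and falls of each comparison. Further members, such as *WRKY33* at 4 h and *WRKY75* for salt in WT, were named outside this rule. Subgroups are the family's published classification. The members and lists were chosen with earlier results of these data known.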

Additional observations from a re-analysis of the deposited data

How the results depend on the processing

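Members called numbered 15 (salt in WT), 1 (salt in *agb1*), 4 (genotypes at 0 h), 6 (genotypes at 4 h) and 0 (interaction), and these counts stayed within 1.5-fold under quantile normalization, a 75th percentile over probes detected on every array, no filter on dim probes and the mean of a gene's probes. The normexp correction gave 3, 0, 0, 0 and 0, and turned *WRKY8* (-0.16), *WRKY41* (-0.18) and *WRKY43* (-0.22) for salt in WT and *WRKY43* at 0 h (-0.98) and for the interaction (0.93). Its fit was shifted on 3 arrays with spots of non-uniform background, and without these spots (added after seeing the data) the counts were 15, 1, 2, 5 and 0. At 4 h 4 of the 6 calls were then kept, *WRKY8* (-0.91, adjusted p = 0.0501) and *WRKY41* (-1.23, adjusted p = 0.0542) were lost and *WRKY33* was gained, and for salt in WT *WRKY47* was lost and *WRKY54* gained. Requiring every array well above background removed *WRKY71*, which left 0 for salt in *agb1*. Taking 12 arrays as 12 samples gave 2 for salt in *agb1*, 8 at 0 h and 1 for the interaction (*WRKY28*), as did slide as a random block. The replicate block over 12 arrays gave 2, 7 and 1 for these, although replicate numbers pair the arrays only at 4 h, and the replicate block on the 4 h arrays alone gave 2 at 4 h. Slide as a fixed block gave 2 at 0 h, fitting only the 2 groups compared gave 3 at 4 h, and the legend's thresholds gave 10 at 4 h. For changes of count in these fits the cause was not tested. With each array left out, the counts ranged from 10 to 17 for salt in WT, 1 to 3 for salt in *agb1*, 1 to 6 at 0 h, 1 to 7 at 4 h and 0 to 1 for the interaction. The difference at 4 h ranged from -0.26 to 1.57 for *WRKY62* and from -0.20 to 1.32 for *WRKY70*, negative only without WT 4 h replicate 3. Dim spots limit *WRKY71* in *agb1* at 0 h to a bound and leave 4 members with a probe untested.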
